A study of Mus musculus with 12 samples.

Results

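The genes described here are the p53 family and its feedback regulators in mouse back skin: Trp53, Trp63, Trp73, Mdm2, Mdm4, Ppm1d, Trp53inp1, Rchy1 and Usp7. They are 9 of the 21883 protein-coding genes placed on the chromosomes of the gene table. They were chosen by name, and a peak was assigned to a gene when its midpoint lay inside the gene or within 5 kb of its start or end. Back skin was taken from mice aged 8 to 10 weeks, and the label for ionizing radiation at 5 Gy is carried by every sample, those named T0 included. The groups are p53 chromatin immunoprecipitation (ChIP) in K17KO skin at 6 h and at T0, the same in wild-type (WT) skin at 6 h and at T0, and ChIP of H3K4me3 in WT skin at 6 h and at T0, with 2 samples each and 12 in all. H3K4me3, the trimethylated lysine 4 of histone H3, marks active promoters. K17KO is the genotype as the labels spell it. They name no allele and no Cre driver, and whether the 2 samples of each group are different animals is not said.

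p53, encoded by Trp53, is a transcription factor that DNA damage stabilises, and it then switches on genes of arrest, repair and cell death. Its level is held down by negative feedback: p53 induces Mdm2, the ubiquitin ligase that sends p53 to the proteasome, and Ppm1d, the phosphatase Wip1 that removes the damage-induced phosphates from p53 and its kinases. Trp63 and Trp73 encode its relatives, and p63 is the master regulator of basal keratinocytes in stratified epithelia such as epidermis.

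The peaks come in 3 lists, 1 each for K17KO p53, p53 with no genotype named (taken here as WT) and H3K4, with 1101, 2909 and 5464 peaks. The H3K4 list names no methylation state or genotype. It is taken here as H3K4me3 in WT skin, the only H3K4 ChIP among the sample labels. The highest q-values in the lists were 0.0919, 0.420 and 0.590, so the lists reach to different q-values and their sizes are not alike. These values do not show which limit was used for each list. With q limited to 0.1 the lists held 1101, 1754 and 4901 peaks. The lists carry no names of libraries, times, replicates or controls. T0 and 6 h therefore cannot be set against each other, no value has a replicate error, and no test was made. The weakest peaks rested on 6 fragments at the summit in the K17KO p53 list, 5 in the WT p53 list and 6 in the H3K4me3 list. Median fragments were 11, 7 and 148. Of keratinocyte genes looked up to check the tissue, Krt1 (highest fold 4.84), Krt10 (4.28) and Krt15 (2.69) had H3K4me3 peaks. Krt5 and Krt14, keratins of basal keratinocytes, had none within 5 kb, the nearest lying 133 kb and 67.7 kb away, and neither did Krt17 (59.1 kb), so a gene without a peak in this list is not shown to lack the mark.

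Of the 9 genes, 0 had a K17KO p53 peak, 1 had a WT p53 peak and 4 had H3K4me3 peaks. The same rule called 3.79% of protein-coding genes in the K17KO p53 list (2.23% of all genes), 6.74% in the WT p53 list (4.42%) and 23.9% in the H3K4me3 list (13.8%). With q limited to 0.1 in each list, the shares of protein-coding genes were 3.79%, 4.06% and 22%. With q limited to 0.01 they were 2.77%, 0.818% and 18.4%. The gene with a WT p53 peak was Trp53inp1, a stress-induced cofactor that promotes p53 activity. The 4 genes with H3K4me3 peaks were Trp53, Mdm2, Ppm1d and Trp53inp1. They held 8 H3K4me3 peaks. Trp63, Trp73, Mdm4, Rchy1 and Usp7 had no peak in any list, and widening the window to 20 kb added none of the 9 genes to any list. Read against these shares, the p53 counts of 0 and 1 are near the background. The H3K4me3 count is 44.4% of the 9 genes, a description of a list chosen by name.

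Long genes are called more often. The shares of protein-coding genes under 20 kb, of 20 to 100 kb and over 100 kb with a peak were 2.25%, 4.27% and 9.84% in the K17KO p53 list. They were 2.93%, 6.93% and 24.8% in the WT p53 list, and 19.6%, 27.3% and 33.8% in the H3K4me3 list. The longest of the 9, Trp63 at 208 kb, had no peak, while Trp53 (11.5 kb), Trp53inp1 (17.9 kb), Mdm2 (21.9 kb) and Ppm1d (35.8 kb) had H3K4me3 peaks.

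The promoters of Trp53, Mdm2 and Ppm1d are shown because H3K4me3 peaks lay on one or both sides of them. Each is the stretch of 250 bases before the start site, from RefSeq (GRCm38.p6, the assembly that mm10 names). Capitals mark matches on either strand to the p53 half-site, a decamer (purines, C, bases A or T, G, pyrimidines). They also mark the Sp1 GC box GGGCGG, the CCAAT box CCAAT and the cAMP response element TGACGTCA. The Trp53 stretch is chr11:69580109-69580358 on the plus strand, that of Mdm2 is chr10:117710759-117711008 on the minus strand, and that of Ppm1d is chr11:85311004-85311253 on the plus strand.
Trp53: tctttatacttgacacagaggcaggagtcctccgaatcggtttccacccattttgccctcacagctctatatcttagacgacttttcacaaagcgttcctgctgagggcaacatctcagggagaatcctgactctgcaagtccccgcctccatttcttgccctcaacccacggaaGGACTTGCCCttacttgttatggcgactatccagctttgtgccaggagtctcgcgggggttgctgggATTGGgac
Mdm2: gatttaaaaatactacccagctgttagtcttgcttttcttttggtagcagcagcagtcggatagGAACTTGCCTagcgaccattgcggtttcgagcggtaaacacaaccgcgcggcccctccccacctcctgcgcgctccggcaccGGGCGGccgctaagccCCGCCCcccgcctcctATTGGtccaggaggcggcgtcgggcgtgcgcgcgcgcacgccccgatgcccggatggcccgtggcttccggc
Ppm1d: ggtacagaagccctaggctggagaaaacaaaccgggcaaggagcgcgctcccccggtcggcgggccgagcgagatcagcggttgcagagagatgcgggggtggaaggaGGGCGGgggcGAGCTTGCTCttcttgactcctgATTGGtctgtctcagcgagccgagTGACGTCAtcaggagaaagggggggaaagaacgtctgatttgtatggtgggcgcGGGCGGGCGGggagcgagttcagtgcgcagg
Each of the 3 held 1 match to the p53 half-site decamer and no second match. The matches started 75 bases before the Trp53 start site, 186 before that of Mdm2 and 132 before that of Ppm1d. Of 21262 such stretches of protein-coding genes, 6.31% held the decamer. Each also held a CCAAT box (35.4% of all stretches), starting 8, 72 and 109 bases before the start site. In addition, Mdm2 held 2 GC boxes and Ppm1d 3, of which a pair overlap (42.6% of all stretches held at least 1), and Ppm1d held a cAMP response element starting 85 bases before its start site (1.92%). The palindromic E-box CACGTG was also searched and was in none of the 3 (6.63% of all stretches). CpG dinucleotides numbered 9 in the Trp53 stretch, 29 in that of Mdm2 and 22 in that of Ppm1d, against a median of 10. No p53 peak of either genotype lay within 5 kb of these 3 genes.

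Trp53inp1 had no K17KO p53 peak within 5 kb. The closest was beside Cibar1, at a distance of 978 kb. In the WT p53 list it had a peak at chr4:11155838-11156252, with a midpoint 396 bp outside the gene at its lower-coordinate end. The authors' fold enrichment was 4.02, from 11 fragments over a background of 1.98. The 95% Poisson interval of the fragments, 5.49 to 19.7, gives a fold of 2.18 to 6.93 with the background held fixed, and it covers counting error only. This fold was above that of 53.8% of the WT list, and its q-value was 0.0381. At 415 bp the peak was wider than 97.3% of WT p53 peaks. Among listed peaks with a background within 5% of this one, the weakest rested on 9 fragments in the K17KO list (201 peaks) and on 8 in the WT list (114 peaks). Library depths are not recorded in the lists, so the missing K17KO peak does not show lower binding in K17KO skin.

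The same gene carried 3 H3K4me3 peaks, a number reached by 0.982% of protein-coding genes, while 4.2% had at least 2. The first, at chr4:11155795-11156157, had its midpoint 465 bp outside the gene, with a fold of 1.68 and 155 fragments over a background of 91.6. The next, at chr4:11156501-11157496, lay 557.5 bp inside the gene, with a fold of 1.63 and 243 fragments over 149. It was 996 bp wide, more than 99.3% of H3K4me3 peaks. The third, at chr4:11157887-11158374, lay 1689.5 bp inside, with the highest fold of the 3 at 2.25 and the fewest fragments, 38 over 16.4. The Poisson intervals of the 3 folds were 1.43 to 1.97, 1.43 to 1.85 and 1.61 to 3.06, so they overlapped. Counted from the lower-coordinate gene boundary, the p53 summit lay 254 bp outside, in the gap of 343 bp between the first and the next H3K4me3 peak, which also holds that boundary. The p53 peak overlapped the first H3K4me3 peak over 320 bp, which is 88.2% of the shorter of the pair, and their summits were 148 bp apart. In the whole WT list 0.963% of peaks overlapped an H3K4me3 peak, and in the K17KO p53 list 6.09% did. These shares are not matched for position. Like this p53 peak, 160 of the 2909 WT and 242 of the 1101 K17KO p53 peaks lay within 1 kb of a protein-coding gene end. So did 3201 of the 5464 H3K4me3 peaks. The overlap share among p53 peaks near gene ends was not computed. Peaks of both lists were found at 2.24% of protein-coding genes.

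**Figure D1:**
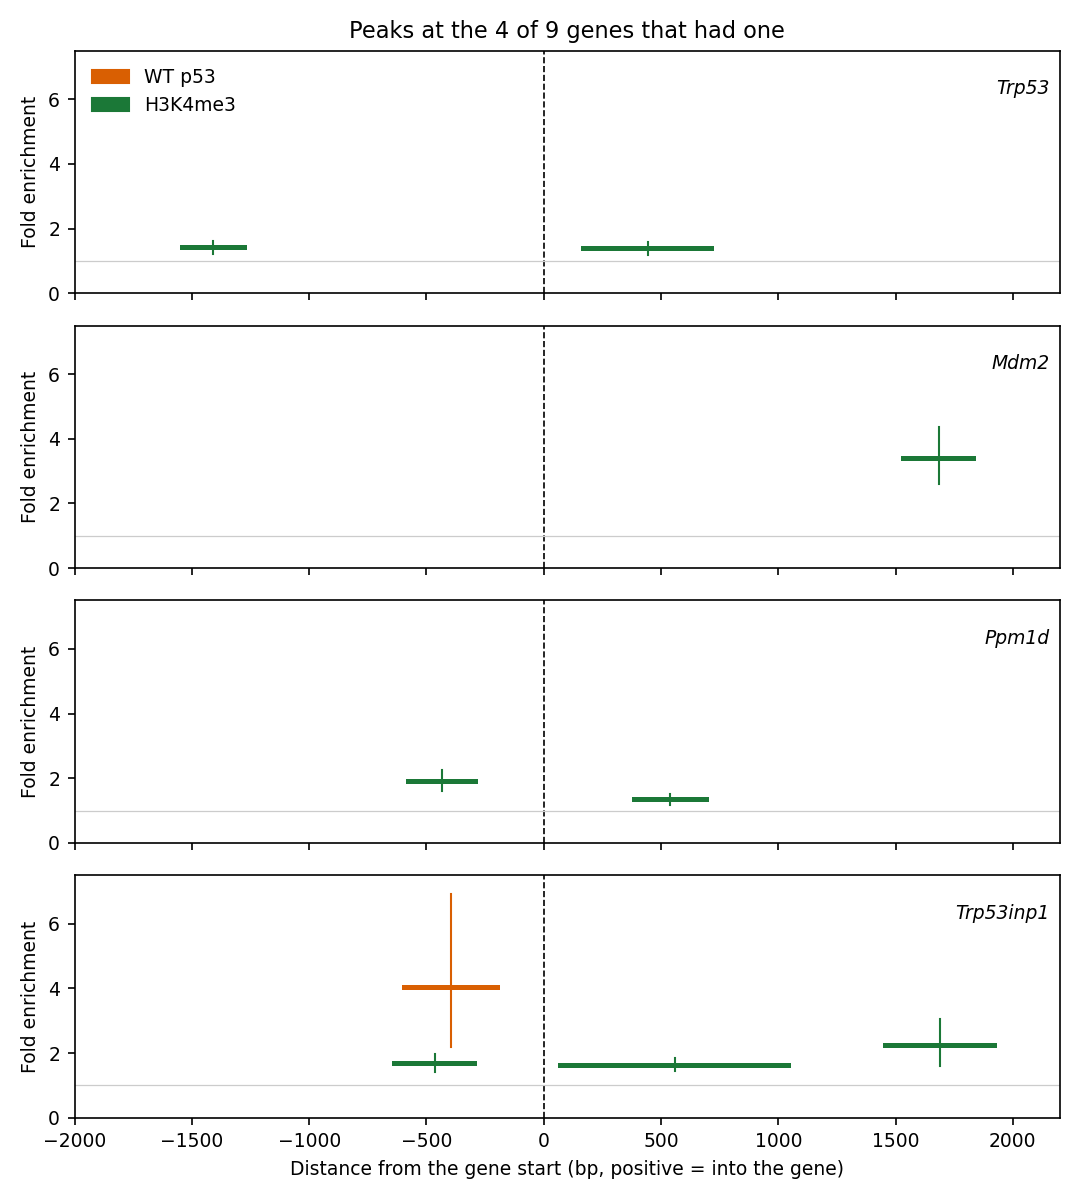
Fold enrichment of each peak (vertical axis, linear) by distance in bp from the gene start (horizontal axis, positive into the gene; the lower-coordinate gene boundary for Trp53inp1). Bars span the peak, and vertical lines are 95% Poisson counting intervals. The single WT p53 peak sits at Trp53inp1 with a fold of 4.02, and the dashed line at the start lies between H3K4me3 peaks at Trp53, Ppm1d and Trp53inp1 but not at Mdm2.

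Mdm2 had the highest H3K4me3 fold of the 9 genes. Its peak, at chr10:117708914-117709235, had a fold of 3.40 with 61 fragments over a background of 17.2 (Poisson interval of the fold 2.61 to 4.35). The −log10 q was 11.1. The midpoint lay 1683.5 bp downstream of the annotated start site, inside the gene. The fold was above that of 89.2% of all H3K4me3 peaks, while the fragments were above those of 27.4%. Of the peaks within 1 kb of a protein-coding gene end, 97.8% had a lower fold. Those peaks had a median background of 121, against 17.2 here, and the Mdm2 midpoint lay farther than 1 kb from the ends of Mdm2. Mouse Mdm2 is known to have a second, p53-responsive promoter in its first intron, but the start-site table lists only the upstream start, so the position of the peak relative to that promoter is not given here. No p53 peak lay at the gene. The nearest K17KO p53 peak was 136 kb away, 348 bp from Rap1b, with 8 fragments over 0.956, and the nearest WT p53 peak was 73.5 kb away, inside Nup107, with 6 fragments over 0.906.

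Ppm1d had a pair of H3K4me3 peaks on either side of its start site. The upstream one, at chr11:85310668-85310975, had its midpoint 432.5 bp before the start, a fold of 1.91 (interval 1.61 to 2.25) and 140 fragments over 72.9. The downstream one, at chr11:85311631-85311957, had its midpoint 540 bp after the start, a fold of 1.34 (1.18 to 1.52) and 240 fragments over 179. The downstream peak therefore had more fragments and the lower fold. The intervals of these folds did not overlap. The gap between the peaks was 655 bp wide and held the start site. The nearest p53 peaks lay 587 kb away in the K17KO list and 658 kb away in the WT list.

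Trp53 also had a pair of H3K4me3 peaks. The peak inside the gene, at chr11:69580517-69581086, had its midpoint 442.5 bp after the start site, with a fold of 1.37 (interval 1.19 to 1.58) and 188 fragments over 136. The other, at chr11:69578807-69579092, had a fold of 1.41 (1.20 to 1.63) and 170 fragments over 121, with its midpoint 1409.5 bp before the Trp53 start site. This second peak lies inside Wrap53, the neighbouring gene transcribed in the opposite direction, whose product guides telomerase RNA. Its midpoint was 299.5 bp downstream of the nearer of the 2 Wrap53 start sites in the table. The other Wrap53 start site is 109 bp from that of Trp53, so the peaks at this shared promoter region cannot be assigned to either gene alone. Both folds were low in the list, above 12.4% and 16.5% of H3K4me3 peaks. Trp53 was the 1 gene of the 4 left without a peak when q had to be 0.01 or lower, or when only the 50% of peaks with the highest folds were kept. The nearest p53 peaks lay 187 kb away in the K17KO list, inside Zbtb4, and 114 kb away in the WT list.

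**Figure D2:**
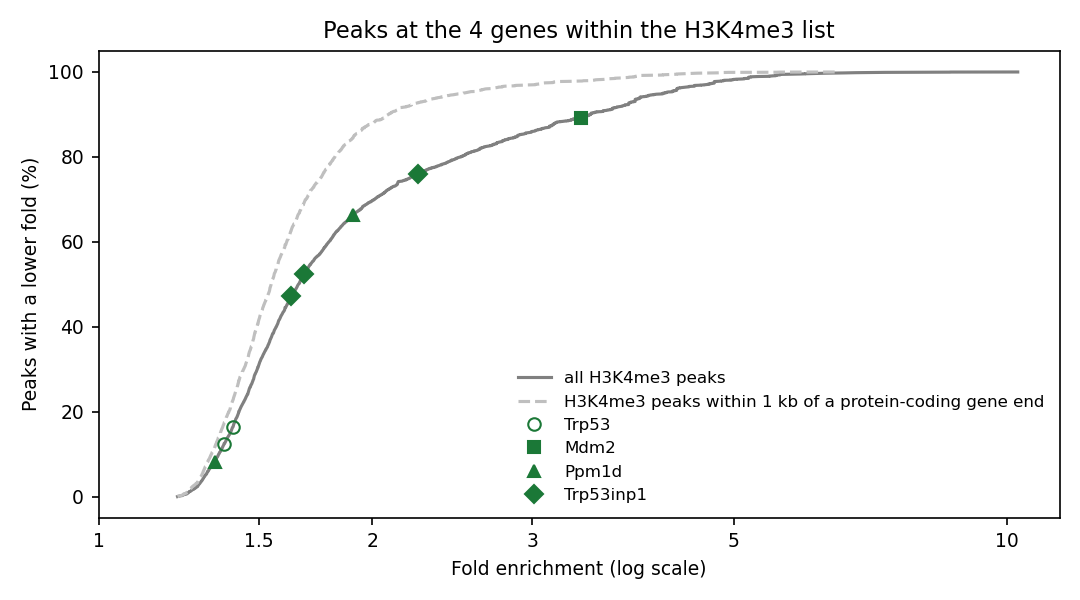
Share of H3K4me3 peaks with a lower fold (vertical axis, percent) against fold enrichment (horizontal axis, log scale), for the whole list of 5464 peaks and for the 3201 within 1 kb of a protein-coding gene end. Symbols mark the 8 peaks at Trp53, Mdm2, Ppm1d and Trp53inp1 on the curve of the whole list. The Mdm2 peak stands at 89.2%, and the Trp53 peaks stand at 12.4% and 16.5%.

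The background under these H3K4me3 peaks ran from 16.4 to 179 fragments. Across the list its median was 90.7, and 3 of the 8 peaks lay below that. The median was 121 within 1 kb of a protein-coding gene end, with 5 of the 8 below it, and 9.35 at the 385 peaks over 50 kb from such an end. Neither the labels nor the list say which control was used, and its part in these folds was not tested. Fold and fragments gave different orders: the Mdm2 peak and the third Trp53inp1 peak had the fewest fragments of the 8 and the highest folds, while the Trp53 peaks had 170 and 188 fragments and folds below 1.5.

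None of the 3 start sites at Trp53, Mdm2 and Ppm1d was covered by a peak. Of all 21262 start sites of protein-coding genes in the table, 17.4% had an H3K4me3 midpoint within 2 kb. Among those, 9.76% were covered by a peak and 6.02% had a midpoint on each side within 2 kb. Trp53 and Ppm1d were of the flanked kind by this rule, and Mdm2 had its peak downstream. At Trp53 the upstream peak is the one inside Wrap53, which cannot be assigned to Trp53 alone.

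**Figure D3:**
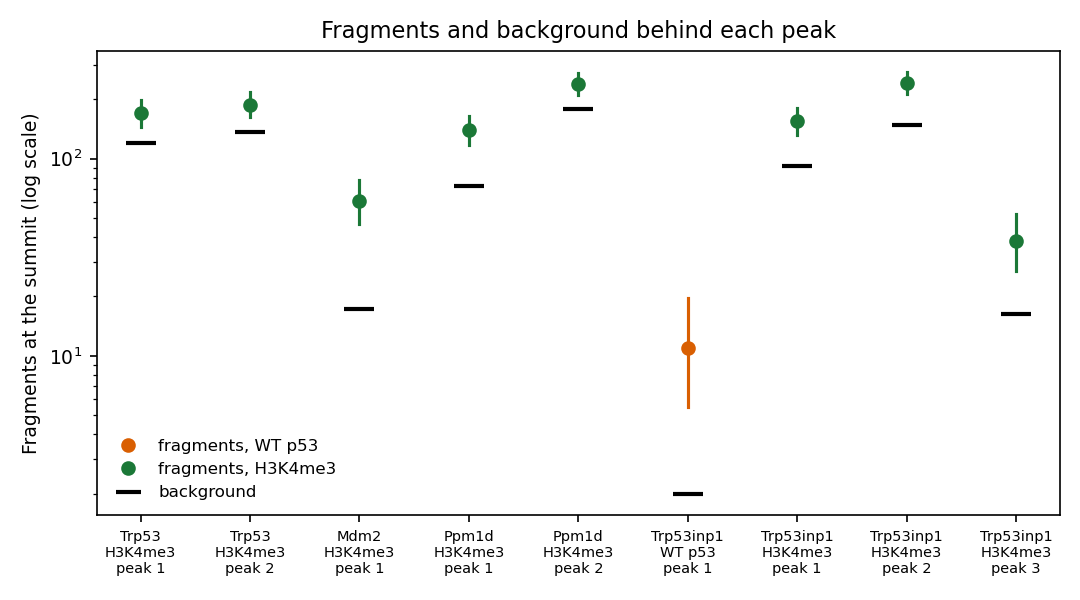
Fragments at the summit (points, with 95% Poisson counting intervals) and the caller's background (black dashes) for each peak, on a log axis; peaks of a gene are numbered by position. The WT p53 peak at Trp53inp1 rests on 11 fragments over 1.98, and the H3K4me3 peaks on 38 to 243 over 16.4 to 179.

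The relatives of p53 had no peak. Trp63 lies on chromosome 16 from 25683763 to 25892088. Its nearest K17KO p53 peak, at chr16:25529723-25530036, lay between Tprg and Trp63, 154 kb from Trp63 and 106 kb from Tprg. It ranked 55 of 1101 by fold, at 6.17 with 11 fragments over 0.945. That background is the minimum of the K17KO list, and 11 fragments is its median. The nearest WT p53 peak lay 690 kb away inside Il1rap, with 5 fragments and a q-value of 0.420, and the nearest H3K4me3 peak 213 kb away inside P3h2. Trp73 lies on chromosome 4 from 154056249 to 154139875 and has 2 start sites in the table. Its nearest peaks were 588 kb away in the K17KO p53 list, 325 kb away in the WT p53 list, inside Prdm16, and 44.1 kb away in the H3K4me3 list, inside Lrrc47.

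The other regulators without a peak were Mdm4, Rchy1 and Usp7. Mdm4 encodes the Mdm2 relative that holds p53 inactive, and its nearest H3K4me3 peak was 40.9 kb away inside Pik3c2b, with a fold of 3.25 and 16 fragments over 4.23. The nearest p53 peaks lay 591 kb (K17KO) and 282 kb (WT) away. Rchy1 encodes Pirh2, a ubiquitin ligase for p53 that p53 also induces. Its nearest p53 peaks lay 1320 kb away in the K17KO list, near the cyclin G2 gene Ccng2, and 810 kb away in the WT list, 291 bp from the amphiregulin gene Areg. Its nearest H3K4me3 peak was 149 kb away inside G3bp2, with a fold of 2.46 and 29 fragments. Usp7 encodes a deubiquitinase that stabilises Mdm2 and p53, and its nearest peaks were 1412 kb (K17KO p53), 300.2 kb (WT p53) and 73.3 kb (H3K4me3) away. The stretch of 250 bases before the Usp7 start site had 55 CpGs, more than 99.99% of all such stretches had. That start site, chr16:8738342 on the minus strand, lies inside the gene as placed here (8688722 to 8757067), not at its upper end. Rchy1 was the other gene of the 9 with a p53 half-site decamer in such a stretch, 90 bases before 1 of its 2 start sites. The stretches of Trp73, Mdm4 and Usp7 held none. Trp63 and Trp53inp1 were not among the promoters used.

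Across the 9 genes the distance to the nearest peak had a median of 588 kb in the K17KO p53 list, against 581 kb over all protein-coding genes. The medians were 300.2 kb and 242 kb in the WT p53 list, and 40.9 kb and 66.8 kb in the H3K4me3 list. In the K17KO list 3 genes (Mdm2, Trp63 and Trp53) lay nearer to a peak than the median gene, and in the WT list 3 did (Trp53inp1, Mdm2 and Trp53). In the H3K4me3 list 6 did, namely the 4 with a peak, Mdm4 and Trp73.

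**Figure D4:**
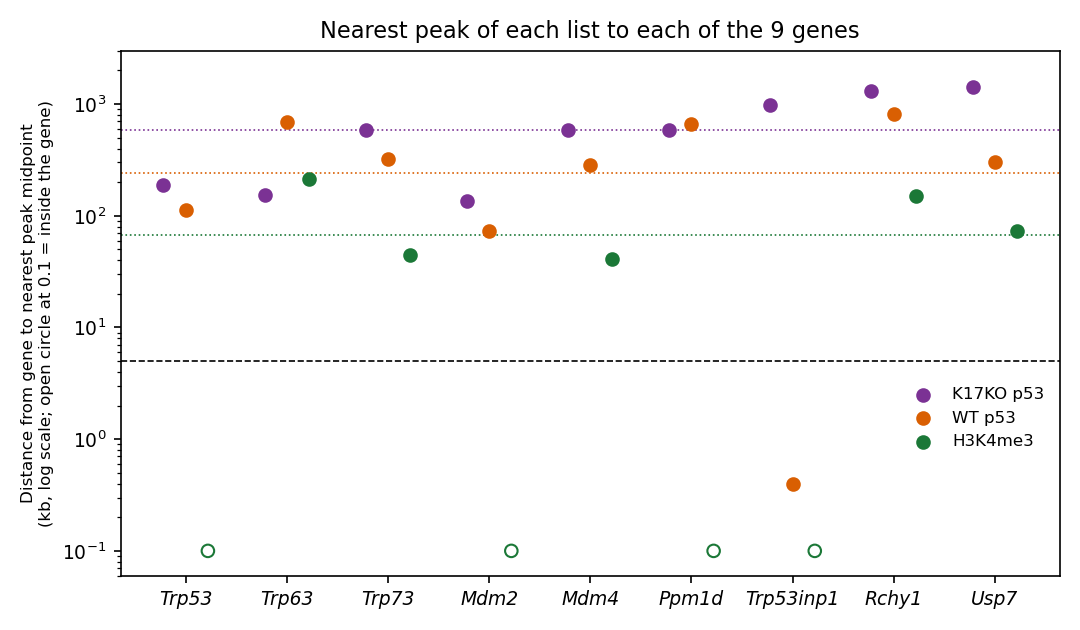
Distance in kb (log axis) from each of the 9 genes to the nearest peak midpoint of the K17KO p53, WT p53 and H3K4me3 lists, from left to right within a gene. Open circles at 0.1 stand for a midpoint inside the gene. Dotted lines are the medians over all protein-coding genes (581, 242 and 66.8 kb), and the dashed line is the 5 kb window, below which lie Trp53inp1 for WT p53 and 4 genes for H3K4me3.

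The same rule was applied to 67 other genes listed by name as regulators of p53. They were 21 kinases and modifying enzymes, 26 ligases, deubiquitinases and Mdm2 inhibitors, and 20 cofactors and binding partners. The last group also takes in p53-induced genes such as Ccng1, and a regulatory role was not tested for any of them. A K17KO p53 peak was found at 2 of 67 (2.99%, against 3.79% of protein-coding genes), a WT p53 peak at 7 (10.4%, against 6.74%) and an H3K4me3 peak at 30 (44.8%, against 23.9%). By group, H3K4me3 peaks lay at 8 of 21, 10 of 26 and 12 of 20. Some of these peaks lay inside a neighbouring gene, such as those at Chek2, Prkdc and Atr. With q limited to 0.1 the WT p53 count was 3 of 67, against 4.06% of protein-coding genes. The H3K4me3 count at that limit was 27 of 67, against 22%. Of the 7 genes with a WT p53 peak, Wwox (913 kb), Zmiz1 (209 kb), Herc2 (182 kb) and Cop1 (123 kb) were over 100 kb. In that length class 24.8% of protein-coding genes had a WT p53 peak. Ep300, Ccng1 and Prmt5 were shorter. Ep300, which encodes the acetyltransferase p300 that acetylates p53, had the highest fold of these regulators in both p53 lists, but at different sites 61.3 kb apart. Its K17KO peak lay inside the gene, 4943 bp from an end, with a fold of 5.19 and 13 fragments. Its WT peak lay 374 bp outside the gene, with a fold of 5.62 and 11 fragments.

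The other K17KO peak was at Usp28, a deubiquitinase gene, inside the gene with a fold of 4.50. Next in the WT list were Herc2, a large ubiquitin ligase gene (4.72), Ccng1, the p53-induced cyclin G1 gene (4.40), and Wwox (3.56), whose peak lay 258 kb from the nearer end of a gene of 913 kb. Ccng1 was like Trp53inp1 in having its WT p53 peak close to a gene end, 213 bp inside, and an H3K4me3 peak (1.49). The highest H3K4me3 folds were at Pml, which encodes the organiser of nuclear bodies (4.24), Banp (4.18), Wwox (3.48) and Cdkn2a (3.46), the locus of the Mdm2 inhibitor Arf. The Banp, Wwox and Cdkn2a peaks rested on 11, 9 and 7 fragments.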

How the data were processed

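Peak lists were analysed as the authors deposited them, 3 in all. Bowtie2 2.2.5, SAMtools 1.7, MACS2 2.1.2 and build mm10 are named, without roles, per the submitters' processing notes. Each list is a headerless table of 10 columns. Its fold enrichment, as deposited, is a ratio of summit pileup to local background. Its −log10 p and −log10 q were deposited by the authors from their caller, and the deposited score is the −log10 p times 10 with decimals dropped.

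Fragments and background behind each peak were solved from the fold, read as (fragments + 1)/(background + 1), and from p, read as a Poisson tail above the fragments. An integer met both to within 0.001 on the −log10 scale in 100% of peaks. Intervals are exact Poisson at 95% and cover counting error only. Gene positions came from a RefSeq table (GRCm38.p6). It gives no strand or exons, so strands and start sites came from the RefSeq promoter table, which matched 7 of the 9 genes, and introns and exons were not told apart. Python 3.11.15, pandas 2.3.3 and SciPy 1.17.1 were used, and the steps were tested on simulated data. Members and lists were chosen with earlier results of these data known. All 9 genes are reported, with the 4 highest-fold other regulators per list. No test was made. Alternative windows, peak positions and thresholds were tried.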

Additional observations from a re-analysis of the deposited data

How the results depend on the processing

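The counts of the 9 genes were recomputed with windows of 0, 1 and 20 kb, with gene ends only, with any base or the summit of the peak, with q limited to 0.1 and to 0.01, and with only the 50% of peaks of highest fold. The K17KO p53 count was 0 in each. The WT p53 count of 1 became 0 with peaks inside the gene only and 0 with q limited to 0.01. The peak shared by WT p53 and H3K4me3 was likewise lost (0) at that limit. The H3K4me3 count ran from 3 to 4. Of the 67 other regulators, the K17KO p53 count of 2 became 1 near gene ends only and 1 in the 50% of highest fold. The WT p53 count of 7 became 4 near gene ends only, 3 with q limited to 0.1, 1 with 0.01 and 3 in the 50% of highest fold, where the share of all protein-coding genes was 2.72%, 4.06%, 0.818% and 3.58%, against 6.74% before. The H3K4me3 count of 30 became 11 in the 50% of highest fold, where that share was 10.8%, against 23.9% before. For K17KO p53 it was 2.37% and 1.91%, against 3.79%. These settings keep fewer peaks or less of each gene. No paired analysis was possible because the lists name no replicate, and leaving out replicates was not possible for the same reason. Library depths are not recorded in the lists, and p53 peaks rested on a median of 11 (K17KO) and 7 (WT) fragments.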
